A study of Mus musculus with 15 samples.

Results

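The 8 genes described here encode the enzymes that take tryptophan apart in the liver: Tdo2, Ido2, Afmid, Kmo, Kynu, Haao, Acmsd and Qprt. They were chosen by symbol, as members of the kynurenine pathway, from a table of raw read counts over exons with 38087 genes. All 8 were found and all 8 passed the filter on low counts, which kept 17405 genes. They were measured in primary hepatocytes, liver cells taken from CD-1 mice, frozen, thawed and kept on collagen under a Geltrex overlay. All cultures were in medium with dexamethasone and insulin, and all received 25% mouse serum for 24 h, followed by growth hormone or its vehicle, PBS, for 2 h.

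The 13 libraries used fell into 5 groups. Male cells were kept in serum of conventionally raised male mice (m_pHep_m_ConvR, n = 3). Female cells were kept in that same male serum (f_pHep_m_ConvR, n = 3), in serum of conventionally raised females (f_pHep_f_ConvR, n = 2, replicates 2 and 3) or in serum of germ-free females, which have no microbiota (f_pHep_f_GF_serum, n = 2, replicates 2 and 3). A further group of female cells in germ-free serum received growth hormone at 8 ng/ml (f_pHep_f_GF_serum_GH, n = 3). Each sex came as its own donor stock, so that donor and sex cannot be told apart, and ages are not given. The labels do not say whether replicates were separate cultures or serum pools, and p-values therefore measure a spread that may be technical.

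Tryptophan that is not used for protein is broken down in the liver mostly through kynurenine. Tdo2 (tryptophan dioxygenase) opens the indole ring and is the committed step in hepatocytes. It is a classic glucocorticoid-induced liver enzyme. Ido2 is a relative of the inducible dioxygenase Ido1 that can carry out the same reaction. Afmid removes the formyl group to give kynurenine, Kmo hydroxylates kynurenine, and Kynu cleaves the product to 3-hydroxyanthranilate. Haao opens that ring. From its product the route forks: Acmsd sends carbon towards full oxidation, while Qprt turns quinolinate into a precursor of NAD.

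In mm10, the genes lie on 7 chromosomes: Tdo2 at chr3:81957090-81976202 (minus strand), Ido2 at chr8:24531892-24576333 (minus), Afmid at chr11:117825924-117839908 (plus), Kynu at chr2:43555329-43682715 (plus), Haao at chr17:83831156-83847963 (minus) and Qprt at chr7:127107114-127122226 (minus). Kmo (chr1:175620381-175662116) and Acmsd (chr1:127729413-127767978) share chromosome 1, both on the plus strand. Afmid shares 1566 of its exon bases (44.2%) with Gm20708, a model that runs from Syngr2 to Afmid and holds 56634 counts over the 13 libraries against 3394 for Afmid. Its count may therefore hold reads of the neighbour or lack some of its own. Afmid also shares 83 exon bases (2.35%) with Tk1 on the other strand, which holds 466 counts. Acmsd shares 94 exon bases with a gene on the other strand, and the exons of Kmo share none with Fh1, which its span overlaps.

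The promoter of Haao is shown because Haao had the largest log2 difference of the 8 genes between male and female cells. The RefSeq promoter table held an entry for 6 of the 8 genes. The window runs from 250 to 31 bases before the RefSeq start in GRCm38.p6, at chr17:83846821-83847040 on the minus strand. The window lies inside the span of Haao given above, which begins further upstream, at 83847963. It is written 5′ to 3′ in the direction of the gene. Capitals mark TGTTCT, a half-site of the glucocorticoid receptor, GCGTG, the core bound by the aryl hydrocarbon receptor (which kynurenine and other tryptophan products can activate), and TGACCT, the inverted form of the nuclear receptor half-site AGGTCA.
Haao: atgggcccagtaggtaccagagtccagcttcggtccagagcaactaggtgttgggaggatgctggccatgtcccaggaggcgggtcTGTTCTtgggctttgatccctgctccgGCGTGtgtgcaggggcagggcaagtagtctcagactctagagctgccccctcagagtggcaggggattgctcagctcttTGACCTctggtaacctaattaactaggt
TGTTCT began 164 bases, GCGTG 137 bases and TGACCT 58 bases before the start. Both strands were searched in the same window of 32851 promoters. TGTTCT was present in 14.4% of them, AGGTCA in 12.5%, GCGTG in 25.1%, the TATA box TATAAA in 9.95%, the CCAAT box CCAAT in 31% and the STAT site TTCNNNGAA in 6.27%. The last 3 motifs were not found in the Haao window. Such letter matches describe the sequence and are not evidence of binding.

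The libraries held 34097400 to 48742274 counts each. Replicates of a group differed by more than counting noise (chi-square per degree of freedom 5.46 to 53.4). Replicate 2 in conventional female serum and replicate 1 with growth hormone stood apart in Xist, the RNA of the silent X chromosome, at 482 and 685 CPM (counts scaled to library size after TMM normalisation) against 268 to 395 CPM in the other female libraries. Hepatocyte markers such as albumin summed to 20013 to 40262 CPM (9 of 10 listed genes found), macrophage markers to 79.6 to 169 CPM (9 of 10 found) and sinusoidal endothelial markers to 12.4 to 50.2 CPM. Most of the macrophage sum was Cd68 (70.9 to 161 CPM), while Clec4f stayed at or under 3.53 CPM and Cd5l, Marco and Timd4 were at 0 in some libraries. Stellate cell and fibroblast markers summed to 16.5 to 38.3 CPM (7 of 7 found). In bulk RNA, fewer cells of a type and less RNA per cell cannot be told apart.

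Tdo2 was by far the most abundant of the enzymes per length of exon. Its level ran from 15.5 to 127 RPKM (reads scaled to exon length and library size) over the 13 libraries, with a median of 41.4. Qprt followed at 4.09 to 8.59 RPKM and Kmo at 3.20 to 5.29. Acmsd (1.63 to 2.56), Afmid (1.5 to 2.07), Kynu (0.56 to 1.84), Haao (0.31 to 1.34) and Ido2 (0.30 to 1.22 RPKM) were lower. The order of these 5 depends on the gene model. With the longest transcript as length, the group means of Kynu moved from 0.84 to 1.44 up to 1.86 to 3.18 RPKM and those of Afmid from 1.72 to 1.93 up to 2.62 to 2.94, beside 1.84 to 2.36 for Acmsd. Tdo2 made up 48.1% of the summed RPKM of the 8 genes in its lowest library, replicate 2 in conventional female serum, and 90.6% in its highest, replicate 2 in germ-free serum. Ido1, the inducible dioxygenase of other tissues, was nearly silent at 0.03 to 0.33 CPM, 1 to 14 counts per library.

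**Figure D1:**
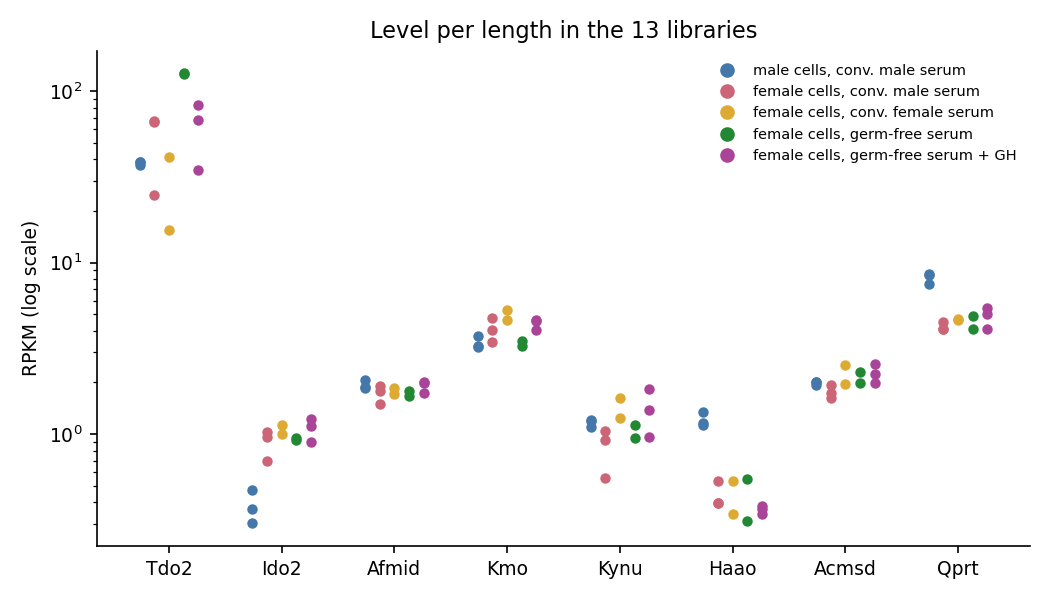
Level per length of the 8 enzymes in each of the 13 libraries (vertical axis, RPKM on a log scale; each point is a library, coloured by group). Tdo2 lies above the other 7 in every library, from 15.5 to 127 RPKM.

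Tdo2 was the most variable member, between groups and within them. In germ-free serum it stood at 493 and 486 CPM. With growth hormone it was at 135, 320 and 263 CPM, and in female cells in conventional male serum at 255, 96.0 and 260 CPM. In conventional female serum it was at 60.0 CPM in replicate 2 and 161 CPM in replicate 3. Both germ-free libraries lay above every other library, and the remaining female groups overlapped one another. Male cells were tight, at 150, 144 and 150 CPM, and lay within the range of the female cells in the same serum. Ordered by mean, the groups ran from germ-free serum (489 ± 4.57 CPM, SD, n = 2) through growth hormone (239 ± 94.6, n = 3), conventional male serum on female cells (204 ± 93.3, n = 3) and male cells (148 ± 3.61, n = 3) to conventional female serum (110 ± 71.3, n = 2). Only the first 2 neighbours in this order did not overlap.

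Counting noise was small against this spread, since Tdo2 had 2907 to 20501 counts per library. Its SD within groups was 0.63 on the log2 scale, where 954 genes of like level (within 0.5 log2 CPM) had a median SD of 0.075 and 99.6% of them a smaller one. Kynu had an SD of 0.36 against a median of 0.15 (97.9% of 1355 genes smaller). The other 6 had SDs of 0.12 to 0.29, larger than those of 20.3% to 81.9% of the genes at their level. The 2 libraries rich in Xist held the lowest Tdo2 of their groups, 60.0 and 135 CPM, and the highest Kynu, 10.02 and 11.3 CPM. The lowest Tdo2 of the female cells in male serum, 96.0 CPM, was in the library with the lowest Xist of any female library, 268 CPM. The part of these library differences in the values was not tested.

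**Figure D2:**
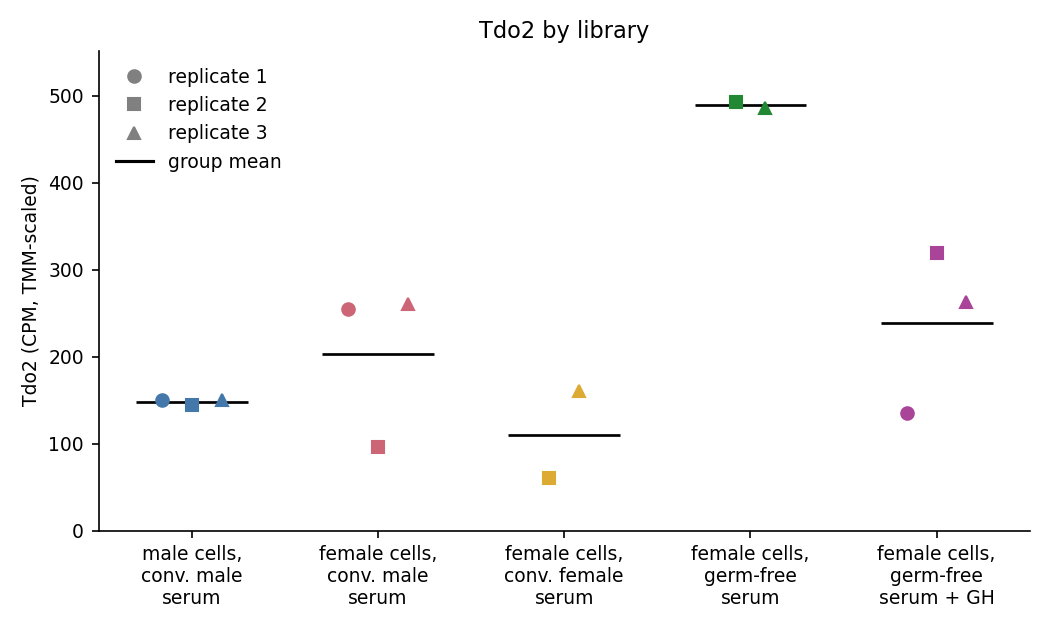
Tdo2 in each library (vertical axis, TMM-scaled CPM) by group, with replicate numbers as symbols and the group mean as a line. The germ-free libraries sit at 486 and 493 CPM and all others at or below 320 CPM.

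The first comparison asked whether the pathway differed between female cells in germ-free (n = 2) and in conventional female serum (n = 2). The entry enzyme rose and the kynurenine hydroxylase fell. Tdo2 was 2.15 ± 0.449 higher in germ-free serum (log2 change ± SE, 95% interval 1.20 to 3.10, adjusted p = 0.00947). Kmo stood at 15.4 and 16.5 CPM in germ-free and at 25.0 and 22.0 CPM in conventional serum, a change of -0.56 ± 0.132 (interval -0.84 to -0.28, adjusted p = 0.0192). Both pairs of libraries lay apart.

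Thus 1 of 8 members rose, 1 fell and 6 did not pass the test, where 6.41% of all 17405 genes passed, 2.86% as rises and 3.54% as falls. Groups did not overlap for 4 of the 8, which was so for 49.9% of all genes in this design of 2 against 2. Kynu was at 5.86 and 6.97 against 10.02 and 7.64 CPM (-0.46, interval -1.03 to 0.10, adjusted p = 0.34). Ido2, Afmid, Haao, Acmsd and Qprt had log2 changes between -0.18 and -0.02. Of these the widest interval was that of Haao, -0.59 to 0.55, and the narrowest that of Qprt, -0.32 to 0.22. The median over the members was -0.06, beside -0.003 over all genes tested.

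Both calls rested on few libraries. Tdo2 lost its call without conventional replicate 2 (1.60, adjusted p = 0.113), without germ-free replicate 2 (2.14, 0.0525) and without germ-free replicate 3 (2.16, 0.052), and reached 3.02 (0.0023) without conventional replicate 3. Kmo lost its call without those same 3 libraries (-0.47, -0.51 and -0.61, adjusted p 0.185, 0.139 and 0.0837) and kept it without conventional replicate 3 (-0.65, 0.019). With the 2 libraries rich in Xist left out, Tdo2 was called (1.60, 0.041) and Kmo was not (-0.46, 0.181). Hepatocyte markers summed to 20013 to 20396 CPM in germ-free and 22863 to 26619 CPM in conventional serum, and macrophage markers, mostly Cd68, to 126 to 134 against 106 to 114 CPM. Stellate cell markers were at 32.6 to 35.3 against 24.1 to 30.6 CPM and endothelial markers at 16.9 to 18.3 against 14.96 to 15.8 CPM. Bile duct markers overlapped, at 37.8 to 39.3 against 29.2 to 38.9 CPM. Markers of dendritic, T and B cells did so too, at 0.79 to 0.81 against 0.69 to 1.07 CPM. Their part in these changes was not tested.

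Conventional male serum (n = 3) was also set against conventional female serum (n = 2) on female cells, as a comparison of serum donors of both sexes. None of the 8 members passed, where 8.8% of all genes did (3.95% rose and 4.85% fell). At an unadjusted p under 0.05, which 24.3% of all genes met, there were 4: Tdo2 (0.88 ± 0.406, adjusted p = 0.195), Kmo (-0.28 ± 0.119, 0.156), Kynu (-0.77 ± 0.242, 0.0596) and Acmsd (-0.35 ± 0.144, 0.154). Kynu, the hydrolase in the middle of the pathway, was at 3.43, 5.67 and 6.43 CPM in male serum and at 10.02 and 7.64 CPM in female serum, without overlap. Non-overlap was seen for 3 of the 8 (Kynu, Acmsd and Qprt), beside 34.9% of all genes. Acmsd, at the fork, was at 4.93, 4.62 and 5.44 against 5.53 and 7.19 CPM.

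Several of these values lay near the threshold. Kynu was called by DESeq2 (adjusted p = 0.0275), with scaling by library totals alone (-0.79, 0.0436) and without male serum replicate 3 (-0.96, 0.0366). It was also called when growth hormone replicate 1 (0.031) or 2 (0.0308), libraries outside this comparison, were left out of the fit. Tdo2 was called with male serum replicate 2 left out (1.22, 0.0389), and with replicate 3 of the female serum left out (1.76, 0.0365). Kmo was called without male serum replicate 2 (-0.41, 0.0302).

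Germ-free female serum was compared with conventional male serum directly as well, and 0 of 8 members passed with edgeR or with DESeq2, beside 0.448% of all genes with edgeR (0.184% rose and 0.264% fell). Tdo2 differed by 1.26 ± 0.388 (interval 0.44 to 2.09, adjusted p = 0.197). Its germ-free libraries, 493 and 486 CPM, lay above 255, 96.0 and 260 CPM. Kmo differed by -0.28 ± 0.123 (adjusted p = 0.445), with 16.2 to 22.6 CPM in male serum overlapping the germ-free values. Those 2 had an unadjusted p under 0.05, as had 10.5% of all genes. Groups did not overlap for 2 members, Tdo2 and Acmsd, beside 24.3% of all genes. With both Xist-rich libraries, which are in neither group, left out of the fit, Tdo2 was called (1.27, adjusted p = 0.0213). The 3 serum comparisons share libraries, so their values are not independent.

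Growth hormone for 2 h on top of germ-free serum gave no member past the test with edgeR or DESeq2, where 0.586% of all genes passed with edgeR (0.511% rose and 0.0747% fell). At an unadjusted p under 0.05 there were 2 of 8, beside 12.8% of all genes. Tdo2 was lower in all 3 hormone libraries than in both vehicle libraries, a difference of -1.03 ± 0.387 (interval -1.85 to -0.21, adjusted p = 0.285). Kmo was higher in all 3, at 21.7, 19.2 and 22.0 against 15.4 and 16.5 CPM (0.39 ± 0.122, adjusted p = 0.192). No other member was without overlap, so 2 of 8 stood beside 32% of all genes. The other 6 had log2 differences from -0.23 (Haao) to 0.42 (Kynu).

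**Figure D3:**
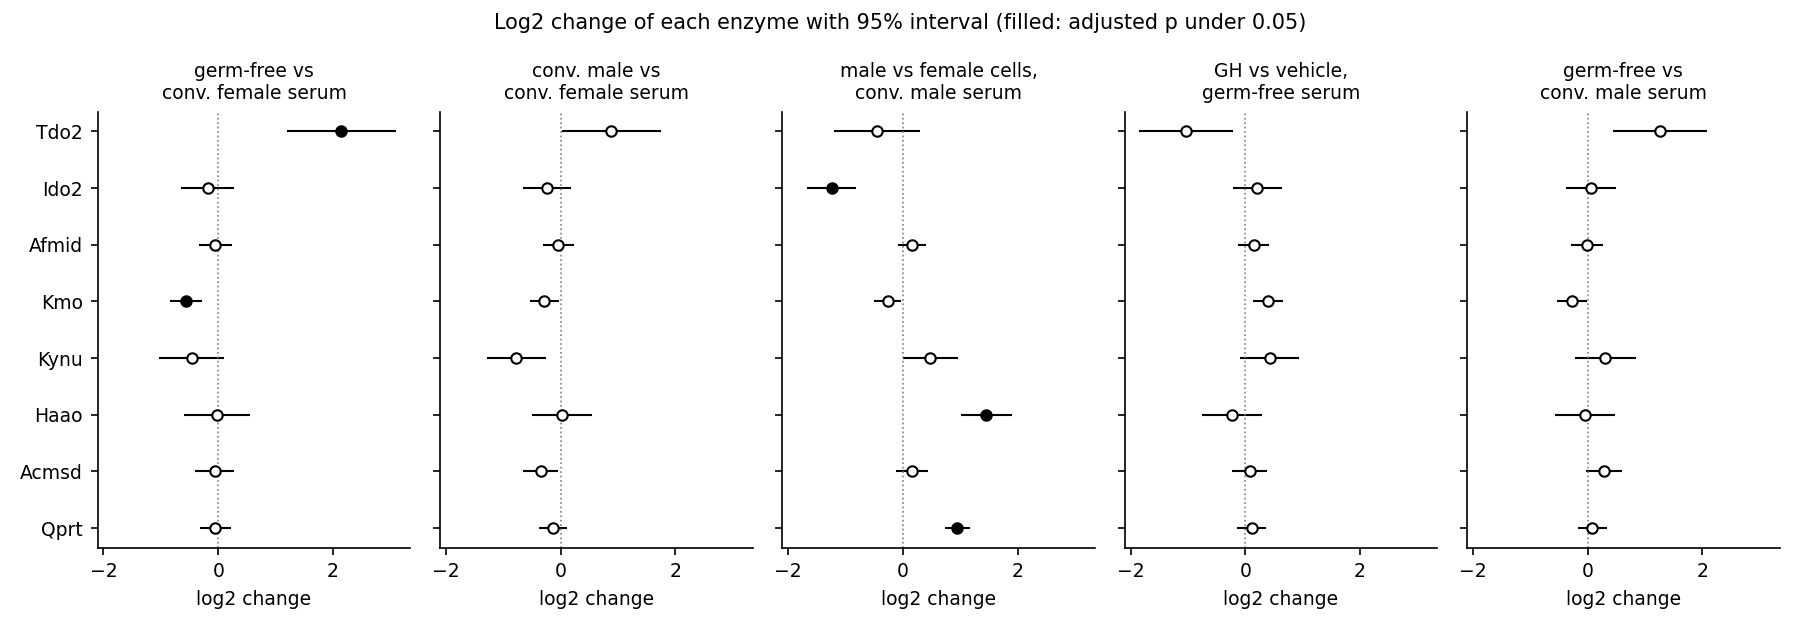
Log2 change of each enzyme (horizontal axis, with its 95% interval) in the 5 comparisons, 1 panel each, enzymes in pathway order from top to bottom. Filled points passed the test: Tdo2 and Kmo with germ-free against conventional female serum, and Ido2, Haao and Qprt between male and female cells.

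Male (n = 3) and female cells (n = 3) were compared in the same conventional male serum, where 3 members were called. Haao, which opens the ring of 3-hydroxyanthranilate, was at 5.29, 5.41 and 6.28 CPM in male cells and at 1.85, 2.50 and 1.85 CPM in female cells. Qprt, the entry to NAD, was at 22.7, 19.9 and 22.3 against 10.8, 11.9 and 10.9 CPM. Ido2 went the other way, at 1.72, 1.10 and 1.33 CPM in male and 2.54, 3.75 and 3.49 CPM in female cells. None of the 3 overlapped between these groups.

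Haao was higher in male cells by 1.46 ± 0.209 (interval 1.01 to 1.90, adjusted p = 4.68e-05) and Qprt by 0.95 ± 0.105 (0.73 to 1.17, adjusted p = 3.16e-06). Ido2 differed by -1.24 ± 0.202 (-1.67 to -0.82, adjusted p = 0.000147). The male Ido2 values rested on 40 to 56 counts per library. The 2 rises and 1 fall among 8 members stood beside 36.7% of all genes called, 17.6% as rises and 19% as falls. Groups did not overlap for 4 of 8 members, the fourth being Kynu, beside 47.6% of all genes. The 3 calls held without any 1 of the 6 libraries. All male values of the 3 genes also lay outside the range of the 10 female libraries, whatever their serum: 1.47 to 2.56 CPM for Haao, 10.8 to 14.3 CPM for Qprt and 2.54 to 4.44 CPM for Ido2. The share of all genes set apart in this way was not counted, so it adds no weight to the 3 calls.

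The other 5 did not pass. Kynu was at 6.79, 7.36 and 7.46 CPM in male cells, above 3.43, 5.67 and 6.43 CPM in female cells (0.48, interval -0.003 to 0.96, adjusted p = 0.112). Kmo differed by -0.27 (interval -0.50 to -0.03, adjusted p = 0.0682), Tdo2 by -0.46 (-1.21 to 0.29, 0.337), Afmid by 0.16 (-0.09 to 0.40) and Acmsd by 0.16 (-0.12 to 0.45). Kmo was called without female replicate 1 (-0.38, adjusted p = 0.0105) and with library totals alone (-0.36, 0.0162). That scaling moved the median of all genes to -0.108 and the split of calls to 2349 rises and 4643 falls, from 3065 and 3314. Against that median, Haao, Qprt and Ido2 kept their directions.

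Hepatocyte markers summed to 39303 to 40262 CPM in male and 20367 to 22662 CPM in female cells of this comparison. Macrophage markers, mostly Cd68, were at 149 to 169 against 79.6 to 99.9 CPM. Endothelial markers were at 48.7 to 50.2 against 14.9 to 18.8 CPM and stellate cell markers at 33.7 to 38.3 against 16.5 to 23.8 CPM. Bile duct markers leaned the other way, at 28.2 to 34.21 against 34.15 to 41.4 CPM. So did markers of dendritic, T and B cells, at 0.46 to 0.58 against 0.53 to 0.96 CPM. Both of these overlapped. Their part in the differences of Haao, Qprt and Ido2 was not tested.

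**Figure D4:**
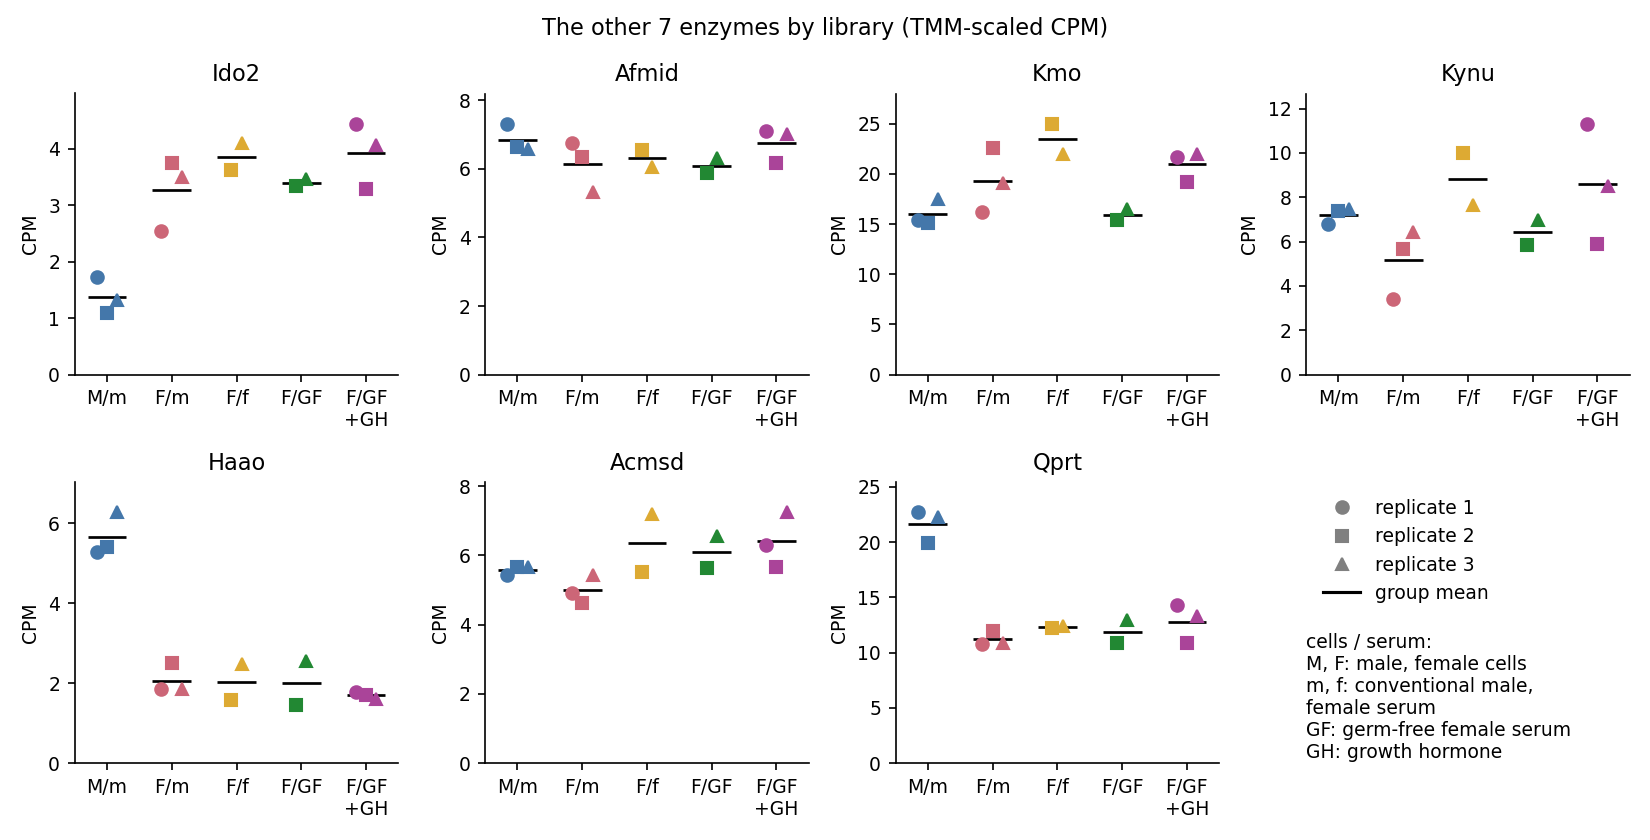
The 7 enzymes other than Tdo2 in each library (vertical axes, TMM-scaled CPM, each from 0), by group, with the group mean as a line. Haao and Qprt are higher and Ido2 lower in the 3 male libraries than in all 10 female ones, and Kmo is lowest among the female groups in germ-free serum.

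Around the pathway, a list of 35 genes of tryptophan and NAD metabolism was counted, which does not hold the 8 members. Of its genes 31 were tested. With germ-free against conventional female serum 4 fell and 1 rose, with a median of -0.17, where 3.54% of all genes fell and 2.86% rose. The falls were Acat1 (-0.86), which releases acetyl-CoA at the end of the oxidative branch, Ddc (-0.72), which makes serotonin and tryptamine, and 2 transaminases that divert kynurenine to kynurenic acid, Aadat (-0.70, adjusted p = 0.00803) and Kyat1 (-0.49, 0.0216). The rise was Il4i1 (0.30), an oxidase of aromatic amino acids. Fewer list genes were called without both libraries rich in Xist, without conventional replicate 2 and without either germ-free replicate. The same was true over all genes. Each of these fits left 1 library in an arm.

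With conventional male against female serum 5 of the 31 fell and 1 rose, again Il4i1 (0.25), beside 4.85% and 3.95% of all genes. Kyat1 was at 7.63, 7.23 and 7.77 CPM in male and 13.7 and 12.95 CPM in female serum (-0.82, adjusted p = 0.000218). Aadat was at 3.16, 3.70 and 3.79 against 6.18 and 6.30 CPM (-0.81, 0.00103). Acat1 (-0.51), Naprt (-0.40), which feeds nicotinic acid into NAD, and Nampt (-0.30), the NAD salvage enzyme, were the other falls. Leaving out 1 library in turn left 3 to 6 falls, and leaving out both libraries rich in Xist left 4. Another such transaminase, Kyat3, did not pass here (-0.13, adjusted p = 0.275) or with germ-free serum (-0.17, 0.221).

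Between male and female cells 11 of the 31 rose and 6 fell, with a median of 0.10, beside 17.6% and 19% of all genes. The largest were Inmt (3.13), a methyltransferase of tryptamine, Aox3 (2.81), an aldehyde oxidase, Nnmt (-1.44), which methylates nicotinamide, and Ddc (1.05). Aadat was at 7.74, 6.59 and 7.75 CPM in male and 3.16, 3.70 and 3.79 CPM in female cells (1.05, adjusted p = 3.95e-06). Aldh8a1, the dehydrogenase that follows Acmsd, was higher by 0.83 (0.000779) and Kyat1 by 0.35 (0.0132). Naprt (0.06, adjusted p = 0.722) and Nadsyn1 (0.10, 0.401), which also act on the way to NAD, did not pass. With growth hormone, and with germ-free against male serum, 0 of the 31 were called by edgeR and 0 by DESeq2. Over all genes edgeR called 0.586% and 0.448%, so few calls could be looked for in a list of this size. At an unadjusted p under 0.05 there were 6 and 5, beside 12.8% and 10.5% of all genes. Of the transaminases, Kyat1 had a difference of 0.33 in the latter (adjusted p = 0.245).

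A second list held 45 genes that break down other amino acids, 44 of them tested. In germ-free against conventional female serum 7 fell and 1 rose (median -0.31; 3.54% and 2.86% of all genes), with Tat, the tyrosine transaminase, at -1.35, Cdo1, the cysteine dioxygenase, at -0.89, and Agxt2 at -0.70. The rise was Bckdha (0.46), a subunit of the branched-chain ketoacid dehydrogenase. In male against female serum 14 fell and 1 rose, beside 4.85% and 3.95% of all genes. In male against female cells 28 rose and 6 fell, beside 17.6% and 19% of all genes, led by Sds (3.66), Tat (2.76), Csad (2.32) and Bhmt (1.88). With growth hormone 1 rose (Cdo1, 0.49), beside 0.511% of all genes, and DESeq2 called 2. With germ-free against male serum 0 of 44 were called by edgeR, beside 0.448% of all genes, and 0 by DESeq2. At an unadjusted p under 0.05 there were 6, beside 10.5% of all genes. The 7 falls became 3 to 8 on leaving out 1 library and 5 with both Xist-rich libraries left out. In male against female serum the falls became 8 to 15 on leaving out 1 library.

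Another list held 20 glucocorticoid targets, since Tdo2 is one by background and all media held dexamethasone. Tat and Sds are also in the list of amino acid breakdown, so the counts of both lists share these genes. In germ-free against conventional female serum 8 fell and 0 rose (median -0.40; 3.54% and 2.86% of all genes), led by Tat (-1.35), Angptl4 (-1.14), Gadd45b (-0.86) and Zbtb16 (-0.83), while Tdo2 rose. In male against female serum 9 fell (4.85% of all genes), among them Tat (-1.11), Errfi1 (-0.86) and Zbtb16 (-0.65), and 1 rose, Sgk1 (0.80). The 8 falls became 4 to 8 on leaving out 1 library and 6 without both libraries rich in Xist; for the 9 these were 6 to 10 and 6. In male cells 8 were higher and 5 lower (17.6% and 19% of all genes). With growth hormone 2 rose, Angptl4 (0.80) and Gadd45b (0.71), beside 0.511% of all genes. Of these 0 were left without hormone replicate 1 or without hormone replicate 3. With germ-free against male serum edgeR called 0 of the 20 (0.448% of all genes). DESeq2 called 3 of the 20 and 297 genes in all. At an unadjusted p under 0.05 in edgeR there were 10 of the 20, beside 10.5% of all genes.

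The genes whose profile was most like that of a member were named by the Pearson correlation of log2 CPM over libraries, among genes with a mean count of at least 50 that are not predicted models. The libraries share their groups and cell stocks, and the values describe these libraries only. For Tdo2 over the 13 libraries they were Thbd (thrombomodulin, r = 0.98), Scpep1 (a serine carboxypeptidase, 0.98) and Atp6v1c1 (a subunit of the vacuolar proton pump, 0.95). Over the 10 female libraries they were Klhdc2 (0.99), Thbd (0.99) and Ctsl (cathepsin L, 0.99). These genes moved far less than Tdo2. In germ-free against conventional female serum Thbd changed by 0.82, Klhdc2 by 0.61, Scpep1 by 0.49, Ctsl by 0.45 and Atp6v1c1 by 0.24. They were picked for following Tdo2 over these same libraries, so the direction of these changes follows from the picking and is no separate result. In the male cells Ctsl and Tdo2 parted, with Ctsl 1.05 higher than in female cells of the same serum.

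**Figure D5:**
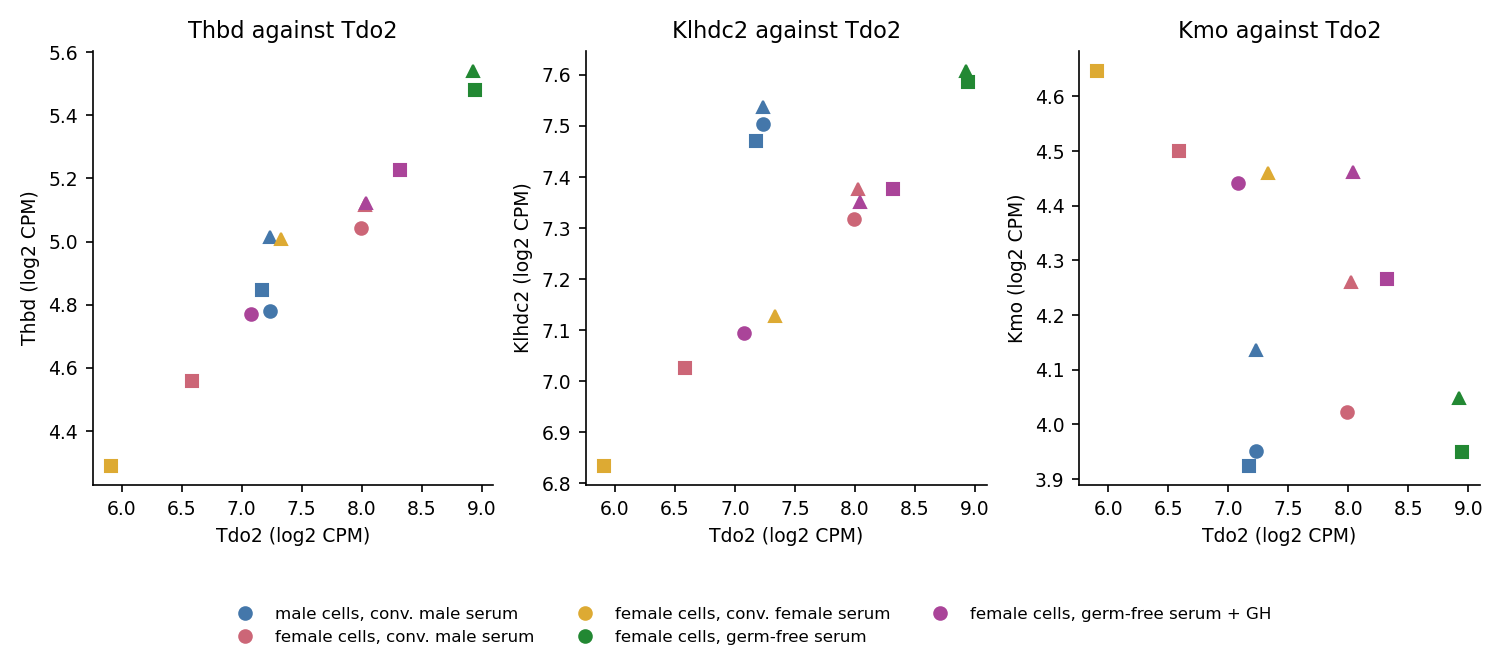
Thbd, Klhdc2 and Kmo against Tdo2 (all axes log2 CPM, each point 1 of 13 libraries, coloured by group; circle, square and triangle are replicates 1, 2 and 3). Thbd rises with Tdo2 over all 13 libraries, and Klhdc2 does so over the 10 female libraries. The male libraries hold more Klhdc2 than female libraries of like Tdo2. Kmo is highest where Tdo2 is lowest.

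For Haao the closest profiles were those of G6pc (glucose-6-phosphatase, r = 0.98), Hpd (a dioxygenase of tyrosine breakdown, 0.97) and Emc7 (0.97), and for Ido2 those of Gas6 (a ligand of TAM receptor kinases, 0.97), Klhl13 (0.97) and Cdca7l (0.97), over 13 libraries. Male cells held G6pc at 8.23 ± 1.24 CPM (mean ± SD of 3) and female cells of the same serum held it at 1.70 ± 0.286 CPM (of 3), while Gas6 was at 78.4 ± 7.72 and 132 ± 6.65 CPM. The direction of these differences likewise follows from the picking. Among the members, Haao and Qprt correlated with r = 0.91 over the 13 libraries and 0.22 over the 10 female ones. Tdo2 and Kmo had r = -0.55 over 13 and -0.86 over 10 libraries, with the highest Kmo, 25.0 CPM, in the library with the lowest Tdo2, 60.0 CPM.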

How the data were processed

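Total RNA, depleted of ribosomal RNA, was sequenced from stranded libraries, per the labels' protocols. The deposited values are raw whole-number read counts per gene over exons. STAR 2.4.0i and mm10 are named in the submitters' processing notes; the counting program and its handling of strand and overlaps were not given in the sources used here. Of 15 samples in the labels 13 were used, because 2 columns of the table share a header name. Groups were taken from the sample titles. The members and gene lists were chosen with earlier results of these data known, and the genes named from the lists are up to 4 called members with the largest log2 change per comparison, plus members that share a role with an enzyme. Il4i1, Bckdha, Nampt and Sgk1 were named in addition to complete small counts, picked after their values were seen. Counts were scaled by TMM and filtered at a minimum count of 10 (edgeR 4.0.16, R 4.3.3), leaving 17405 genes. A model of the 5 groups without covariates (8 residual degrees of freedom, biological coefficient of variation 9.02%) gave two-sided quasi-likelihood F tests, adjusted by Benjamini-Hochberg over all genes tested, threshold 0.05. Log2 CPM used a prior count of 2. RPKM used the union of exons in GENCODE M21. Alternatives were RLE scaling, library totals, no filter, DESeq2 1.42.0, only the groups compared, a replicate block, each library left out and both Xist-rich libraries left out; the counts over lists under left-out libraries, and fits without libraries of groups not compared, were added after seeing the data. Scripts were tested on simulated data. A gene that the naming rule picked and a promoter sequence are not reported here.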

Additional observations from a re-analysis of the deposited data

How the results depend on the processing

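Ranges without 1 library leave out each library of the 2 groups compared in turn. Scaling by RLE changed no call of a member. The count of members called with germ-free against conventional female serum was 2; it was 1 without both Xist-rich libraries and 0 to 2 without 1 library. With male against female serum it was 0, and 1 with library totals alone, 2 without the low-count filter, 1 with DESeq2 and 0 to 2 without 1 library. Between male and female cells it was 3, and 6 without the filter and 3 to 4 without 1 library. With growth hormone it was 0, and 2 without the filter; with germ-free against male serum 0, and 1 without the filter and 1 (Tdo2) without both Xist-rich libraries. Without the filter, 35445 genes entered and the dispersion of Tdo2 was shrunk to 0.577, against 14.6 with 17405 genes.

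Over all genes, germ-free against conventional female serum gave 1115 calls, and 1731 without the filter, 611 with only these groups fitted, 367 without both Xist-rich libraries and 274 to 1225 without 1 library (up to 1337 without a library of another group). Male against female serum gave 1532, and 468, 825 and 663 to 1652 in the last 3 of these. Growth hormone gave 102, and 796 without the filter, 254 with DESeq2, 156 with only these groups and 33 to 190 without 1 library. Germ-free against male serum gave 78, and 622 without the filter, 297 with DESeq2, 286 without both Xist-rich libraries and 2 to 160 without 1 library (25 to 217 without a library of another group).

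Deviations from group means correlated with r from -0.016 to 0.126 for same-numbered libraries and from -0.090 to 0.040 for differently numbered ones. Between male and female cells, with 3 libraries on each side, same-numbered r was 0.038, 0.044 and 0.126, against -0.085 to 0.040 otherwise. Where a side had 2 libraries, 1 deviation is the other with its sign changed, so those r are not independent. Same-numbered r there were 0.061 and 0.090 with growth hormone. In the serum comparisons they ran from -0.016 to -0.005. Whether the numbers pair the libraries was not decided. With the replicate number as a block, 62 genes were called with growth hormone and 31 with germ-free against male serum, no call of a member changed, and Afmid differed by 0.045 in the latter. 

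Directions that turned were those of small differences. With germ-free against conventional female serum Afmid was at 0.0077 without both Xist-rich libraries; without 1 library Afmid ran from -0.11 to 0.0051, Haao from -0.47 to 0.33, Acmsd from -0.25 to 0.13 and Qprt from -0.18 to 0.069. With male against female serum Haao was at -0.0018 with library totals and, without both Xist-rich libraries, Haao was at -0.27 and Afmid at 0.014; without 1 library these ran from -0.27 to 0.37 and from -0.11 to 0.055. With growth hormone Acmsd ran from -0.029 to 0.19, Qprt from -0.010 to 0.24 and Haao from -0.59 to 0.21. With germ-free against male serum Afmid was at 0.0047 with library totals, and without 1 library Afmid ran from -0.105 to 0.065, Ido2 from -0.093 to 0.17, Haao from -0.49 to 0.31 and Qprt from -0.047 to 0.21. The cause of these changes was not tested.

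With 61 to 218 counts per library for Haao and 40 to 210 for Ido2, small differences in these genes were not detectable at this depth. Where an arm was left with 1 library, that library was assumed to vary like the other groups. Level per length used the union of exons; with the longest transcript, 30 of 40 group levels moved by more than the spread between replicates.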
